A study of Mus musculus with 8 samples.

Results

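The 38 genes described here encode the machinery that carries a signal from the T cell antigen receptor into the cell. They were chosen as a fixed list of mouse gene symbols covering the receptor complex, the proximal kinases, the adaptors, the enzymes and exchange factors they recruit, the inhibitory phosphatases and ligases, and the calcium and NFAT branch. All 38 were present among the 47069 Ensembl genes that both deposited tables held, and all 38 passed the filter on low values that left 12273 genes for testing. Transcripts were sequenced from regulatory T cells (Tregs) of the lymph nodes of C57BL/6 mice, 6 to 8 weeks old. Every mouse was 35EbiT × Blimp1-GFP KI, a cross in which Thy1.1 stands for Ebi3 and GFP, knocked in, for Blimp1, so neither population came from reporter-free animals. Both populations were CD4+, CD25+ and low for CD62L. Ebi3-Treg cells were Thy1.1+ and Blimp1-, and Blimp1-Treg cells were Thy1.1- and Blimp1+. The typical purity of the sort was above 90% per the labels, and the low-input library kit was used with 10 pg to 10 ng of total RNA. Each population had 4 libraries, numbered 1 to 4, and the values are in FPKM (fragments per kilobase and per M fragments, M for mega). Numbers 1 and 2 of both populations share a deposited table, and numbers 3 and 4 share another. Nothing in the labels says that the libraries came from separate animals, so every p-value below measures how these samples scatter, and that scatter may be technical.

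A T cell recognises peptide on MHC molecules through its antigen receptor, whose CD3 and zeta chains carry the motifs that are phosphorylated on binding. The kinase LCK, held by the coreceptor CD4, phosphorylates these motifs, ZAP-70 docks on them, and ZAP-70 then phosphorylates the scaffold LAT, on which SLP-76, PLC-gamma-1 and exchange factors assemble. From there the signal splits into calcium and NFAT, Ras, and the protein kinase C-theta, BCL10 and MALT1 route to NF-kB, and phosphatases, ubiquitin ligases and diacylglycerol kinases dampen each step. Tregs need antigen receptor signals to acquire and keep their effector state, and Blimp1 (gene symbol Prdm1) marks effector Tregs.

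Depth, as inferred from the values themselves, ranged from 13.3 to 31.3 M fragments a library. On that depth the fewest reads estimated behind any value of the 38 genes were 421, for Grap2, whose counting error is then 4.87%. Ebi3 was higher in the Ebi3-Treg libraries (20.1 to 46.6 FPKM against 4.94 to 11.7), Prdm1 was higher in the Blimp1-Treg libraries (52.2 to 121 FPKM against 1.94 to 4.33), and Foxp3, the defining Treg factor, lay between 182 and 406 FPKM in all 8. Xist was at most 0.0750 FPKM in the 4 libraries numbered 1 and 2 and 18.5 to 24.4 FPKM in those numbered 3 and 4, so the sex of the source mice and the table cannot be told apart. Summed over 10 B cell markers, all detected in every library, the libraries numbered 1 held 242 and 321 FPKM and the other 6 held 43.9 to 84.5 FPKM. Summed over 6 markers more typical of conventional CD4 T cells (Cd40lg, Il2, Il7r, Tcf7, Lef1 and Satb1), Ebi3-Treg libraries held 713 to 953 FPKM and Blimp1-Treg libraries 230 to 315 FPKM. The sums of 6 T cell markers (5650 to 9433 against 6814 to 9537 FPKM) and 6 Treg markers (1662 to 2766 against 2005 to 4482 FPKM) were high in both. Within these lists the genes differed in direction, with 3 of the 6 T cell and 4 of the 6 Treg markers lower in Ebi3-Treg. Ctla4 averaged 1110 against 1934 FPKM, Trac 2376 against 3621 FPKM and Nrp1 102 against 52.5 FPKM. Markers of other cells summed to 8.58 to 39.3 against 7.76 to 30.3 FPKM for CD8 T cells, 9.07 to 97.8 against 36.9 to 113 FPKM for NK cells, and 12.1 to 109 against 4.77 to 34.5 FPKM for myeloid and dendritic cells. Plasma cell markers summed to 10.8 to 37.2 against 5.84 to 20.5 FPKM, erythroid markers to 0.618 to 13.2 against 0.871 to 12.5 FPKM, and stromal and endothelial markers to 30.8 to 66.3 against 16.7 to 34.1 FPKM. No marker of these lists was at 0 in all 8 libraries.

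Of the 38 genes, 3 were higher in Ebi3-Treg than in Blimp1-Treg (Ubash3a, Themis and Ptpn6), 1 was lower (Malt1), and 34 did not pass the threshold of an adjusted p under 0.05 (limma on log2(FPKM + 1), population and table as terms, Benjamini-Hochberg over all 12273 genes). Over all genes tested, 3.37% were called higher and 2.93% lower, 6.29% in all. The 4 calls make no statement about the list as a whole. At an unadjusted p under 0.05 the counts were 6 higher and 6 lower, beside 11% and 7.57% of all genes tested. The median log2 fold change of the 38 genes, Ebi3-Treg minus Blimp1-Treg, was -0.03, beside 0.07 for all genes tested. Their median absolute log2 fold change was 0.28, beside 0.22. The differences ran from -1.78 for Malt1 to 1.08 for Ubash3a, 18 genes above 0 and 20 below. For 25 of the 38 genes the 95% interval of the difference lay within a doubling in either direction, as it did for 8276 of the 12273 genes. Under median centring the calls were 3 higher and 3 lower, beside 7.06% of all genes called in either direction. Under quantile normalization they were 3 higher and 2 lower, beside 8.12%. In both settings 47.6% of the genes called were higher in Ebi3-Treg.

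**Figure D1:**
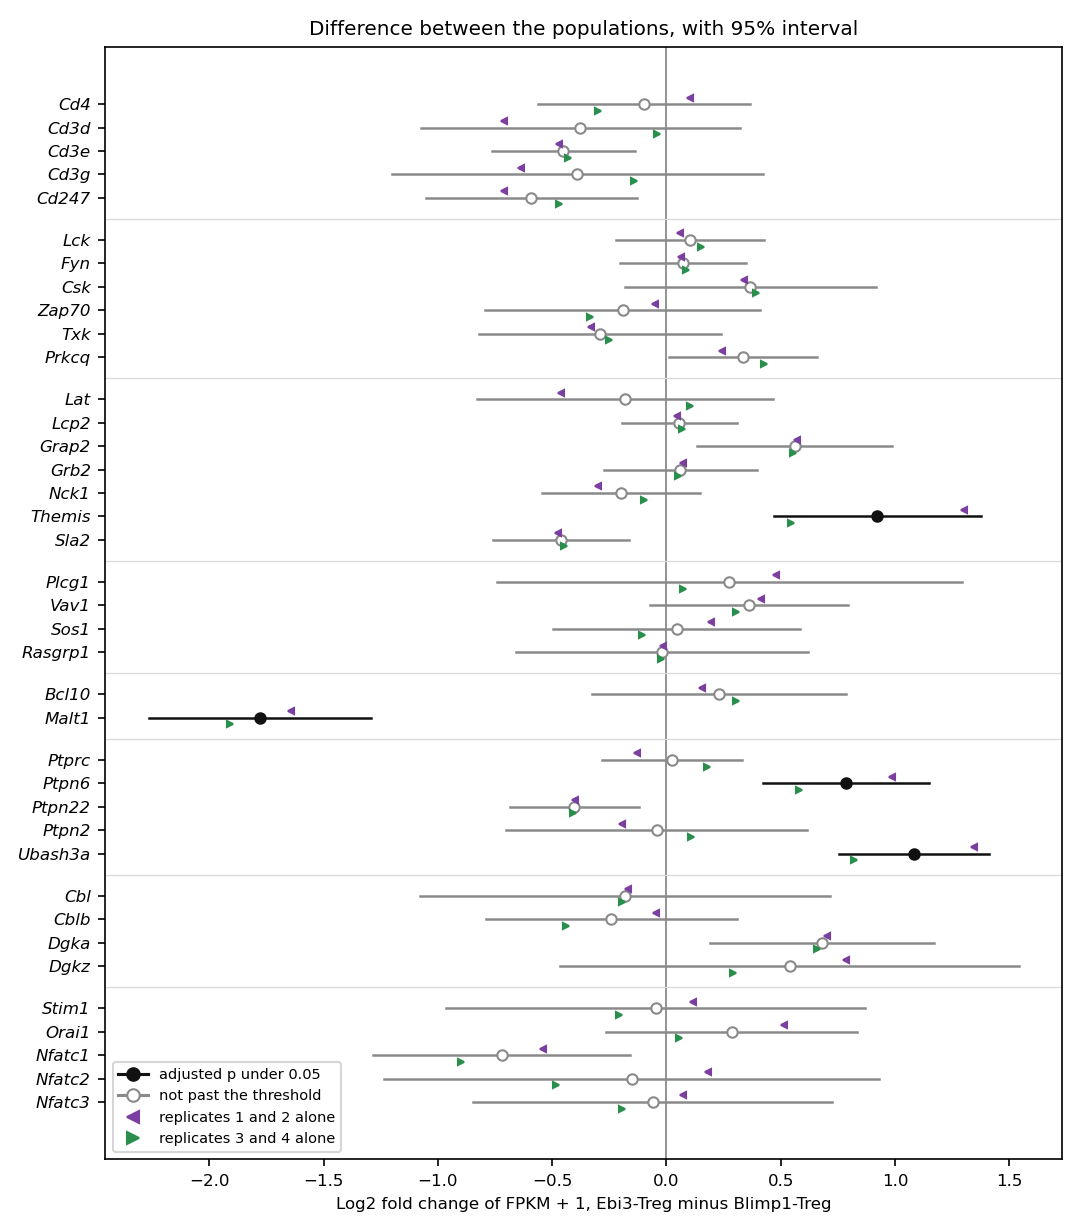
Log2 fold change of FPKM + 1, Ebi3-Treg minus Blimp1-Treg, for each of the 38 genes in order of role. Circles are the fit on both tables with its 95% interval (filled where the adjusted p was under 0.05), and triangles are the differences within replicates 1 and 2 and within replicates 3 and 4. Malt1 stands alone on the left at -1.78, and Ubash3a, Themis and Ptpn6 lie farthest to the right.

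Across genes, the deviations of same-numbered libraries from their population means were correlated for all 4 numbers, but relative to the means within a table this held for numbers 1 and 2 (r = 0.85) and not for 3 and 4 (r = -0.08). A second fit blocked on the replicate number was made beside the main one. With the block, 15 of the 38 genes passed, 9 higher and 6 lower in Ebi3-Treg, against 22.4% of all genes tested (13.5% higher and 8.94% lower). Besides the 4 genes above, these were Dgka, Grap2, Prkcq, Vav1, Csk and Dgkz (higher) and Nfatc1, Sla2, Cd3e, Ptpn22 and Cd247 (lower). Their adjusted p without and with the block is given below with each gene. Where an adjusted p within replicates 3 and 4 alone is added, no gene was called within replicates 1 and 2 alone without the block.

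Promoter sequence is shown for the 3 genes that were higher in Ebi3-Treg, because they share the direction of their call and because Blimp1, by which the populations were sorted, is a DNA-binding repressor. Each is the stretch of 250 bases before the RefSeq start (GRCm38.p6), written 5′ to 3′ on the strand of the gene. Capitals mark the letters GAAAG, the core that Blimp1 is known to bind, and GGAAA, the core that NFAT proteins bind, both searched on both strands. Themis lies at chr10:28668110-28668359 (plus strand, the first of 2 starts listed), Ptpn6 at chr6:124738710-124738959 (minus strand), and Ubash3a at chr17:31207816-31208065 (plus strand).
Themis: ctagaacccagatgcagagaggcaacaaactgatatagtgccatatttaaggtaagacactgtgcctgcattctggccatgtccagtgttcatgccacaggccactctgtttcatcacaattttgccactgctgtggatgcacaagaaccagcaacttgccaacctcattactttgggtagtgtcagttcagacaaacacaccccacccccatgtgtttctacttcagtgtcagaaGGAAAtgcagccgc
Ptpn6: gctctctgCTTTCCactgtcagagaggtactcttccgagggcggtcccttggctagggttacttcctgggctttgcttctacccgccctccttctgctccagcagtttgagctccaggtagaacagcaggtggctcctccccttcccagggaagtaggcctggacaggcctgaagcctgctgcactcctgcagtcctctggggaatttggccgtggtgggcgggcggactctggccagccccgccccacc
Ubash3a: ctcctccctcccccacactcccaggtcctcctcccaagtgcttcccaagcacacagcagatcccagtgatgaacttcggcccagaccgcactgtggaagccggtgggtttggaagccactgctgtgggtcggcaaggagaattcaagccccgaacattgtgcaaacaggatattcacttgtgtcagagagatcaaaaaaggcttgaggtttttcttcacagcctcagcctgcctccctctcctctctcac
In the Themis window the capitals are a single GGAAA. In the Ptpn6 window they are a GAAAG and a GGAAA on the opposite strand, which overlap in CTTTCC. The Ubash3a window held neither set of letters. Among 32851 windows of this length, 51.5% held GAAAG and 55.6% held GGAAA. Of the 34 members with a listed window, 16 held GAAAG (47.1%) and 22 held GGAAA (64.7%). Such short matches are a description of the letters, and neither binding nor the start that these cells used was measured.

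The receptor and coreceptor chains were among the most abundant transcripts in both populations. FPKM is scaled by length, but the gene lengths behind these values are not known. The libraries numbered 2 also shifted with transcript length, as described below, so levels of different genes can be set side by side only roughly. Cd3g, which encodes CD3 gamma, and the kinase gene Lck had the highest mean levels of the 38 genes (1496 and 1494 FPKM over 8 libraries). Lck was above Cd3g in 6 of the 8 libraries, all but those numbered 2. None of the 5 chains passed the main threshold (limma), and 2, Cd3e and Cd247, had an unadjusted p under 0.05. All 5 had a negative fold change, with a median of -0.39 on the log2 scale, as had 5003 of the 12273 genes tested. The block fit called 2 of them lower in Ebi3-Treg, beside 8.94% of all genes tested. The genes of the receptor's own chains, which are outside the 38, differed in direction. Trac was at -0.62, Trbc1 at 0.20 and Trbc2 at 0.42 (adjusted p = 0.0721, 0.746 and 0.261, limma). With the block only Trac was called, lower in Ebi3-Treg (adjusted p = 0.00608, limma).
Cd3e, encoding CD3 epsilon, was measured at 733, 852, 626 and 779 FPKM in Ebi3-Treg 1 to 4 and at 1067, 1126, 872 and 1018 FPKM in Blimp1-Treg 1 to 4. Every Ebi3-Treg library lay below every Blimp1-Treg library, with 852 and 872 FPKM as the nearest pair. The log2 difference was -0.45 (SE 0.13), with an adjusted p of 0.104 without the block and 0.00876 with it (limma).
Cd247, encoding the zeta chain, was measured at 143, 249, 158 and 208 FPKM in Ebi3-Treg and at 291, 331, 231 and 273 FPKM in Blimp1-Treg. The groups overlapped, since Ebi3-Treg 2 was above Blimp1-Treg 3, while within each number the Blimp1-Treg library was the higher. The difference was -0.59 (SE 0.20), with an adjusted p of 0.151 and, with the block, 0.0136 (limma). By the reference annotation 60.3% of the exonic bases of Cd247 overlap exons of other genes, Pou2f1 on the opposite strand among them, so its level is uncertain.
Cd3g was at 924, 2249, 945 and 899 FPKM in Ebi3-Treg and at 1453, 3461, 968 and 1067 FPKM in Blimp1-Treg. Both libraries numbered 2 stood above every other library of their population. Cd3d, encoding CD3 delta, showed the same layout, with 449 FPKM in Ebi3-Treg 2 against 181 to 220 in the other 3, and 727 FPKM in Blimp1-Treg 2 against 184 to 366. The difference for Cd3d was -0.71 within replicates 1 and 2 and -0.04 within replicates 3 and 4.
Cd4, the coreceptor by which the cells were sorted, was at 399 to 600 FPKM in Ebi3-Treg against 345 to 761 FPKM in Blimp1-Treg. Its difference of -0.10 had a 95% interval from -0.56 to 0.36.

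**Figure D2:**
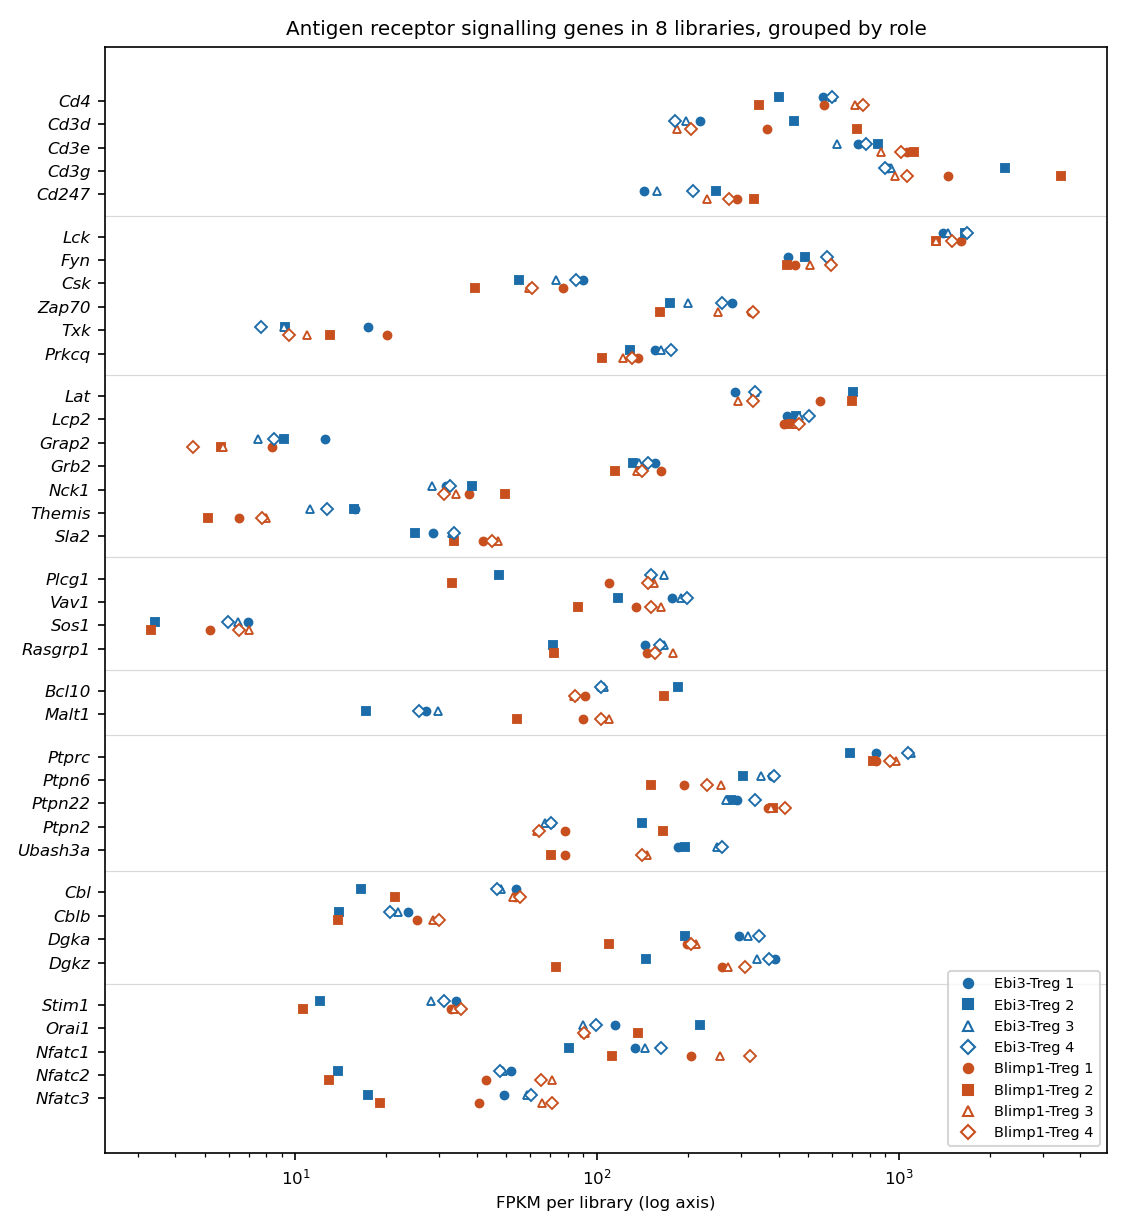
FPKM of each of the 38 genes in all 8 libraries, on a log axis, grouped by role from the receptor chains (top) to the calcium and NFAT genes (bottom). Blue is Ebi3-Treg, orange is Blimp1-Treg, and the marker shape gives the replicate number. Squares, the libraries numbered 2, lie at one end of the row for most genes in both colours.

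None of the 6 kinases passed the main threshold (limma), and 1, Prkcq, had an unadjusted p under 0.05. Lck, the coreceptor-bound kinase that starts the cascade, was at 1397 to 1684 FPKM in Ebi3-Treg against 1326 to 1607 FPKM in Blimp1-Treg. Its difference was 0.10, with a 95% interval from -0.22 to 0.43. Fyn, a related Src-family kinase, was at 431 to 588 FPKM against 427 to 598 FPKM, with a difference of 0.07 (95% interval -0.20 to 0.35). Both 95% intervals lay within a factor of 1.5 in either direction.
Zap70, encoding the kinase that docks on the phosphorylated chains, was at 175 to 280 FPKM against 162 to 328 FPKM. The difference was -0.19 (95% interval -0.80 to 0.41). Txk, a Tec-family kinase, was lower in abundance, at 7.68 to 17.4 FPKM against 9.53 to 20.1 FPKM. In each number its Blimp1-Treg library was the higher, but the block fit did not call it (adjusted p = 0.0848, limma).
Prkcq, encoding protein kinase C-theta, the kinase upstream of the BCL10 and MALT1 complex, was measured at 155, 128, 163 and 176 FPKM in Ebi3-Treg and at 137, 104, 122 and 130 FPKM in Blimp1-Treg. Ebi3-Treg 2 lay within the range of the Blimp1-Treg libraries and the other 3 lay above it. The difference was 0.33 (SE 0.14), with an adjusted p of 0.251 in the main fit, 0.0226 with the block and 0.0368 within replicates 3 and 4 alone (limma).
Csk, whose product restrains Src-family kinases by phosphorylating their tails, was at 89.5, 55.0, 73.1 and 85.3 FPKM in Ebi3-Treg and at 77.1, 39.5, 59.3 and 60.6 FPKM in Blimp1-Treg. The difference was 0.37, called with the block (adjusted p = 0.0205) and not without it (0.512, limma).

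Among the 7 adaptors, Themis was higher in Ebi3-Treg. THEMIS is an adaptor best known for its role in thymocyte selection, where it acts with GRB2 and SHP-1. Its transcript was at 15.8, 15.6, 11.2 and 12.7 FPKM in Ebi3-Treg 1 to 4 and at 6.51, 5.12, 7.97 and 7.76 FPKM in Blimp1-Treg 1 to 4. The groups did not overlap, and the gap was wider among numbers 1 and 2 than among numbers 3 and 4. The means were 13.8 ± 2.24 and 6.84 ± 1.31 FPKM (SD, n = 4 each), a ratio of 2.02. The log2 difference was 0.92 (SE 0.20, adjusted p = 0.0320 by limma), or 1.30 within replicates 1 and 2 and 0.55 within replicates 3 and 4. This call was lost on leaving out any 1 of the 8 libraries, with adjusted p from 0.0574 to 0.0905 (limma). It was the sole member whose difference between tables had an unadjusted p under 0.05 (0.0490), and none did after adjustment.
Sla2, encoding SLAP-2, an adaptor that promotes removal of the receptor complex, went the other way. It was at 28.6, 24.9, 33.1 and 33.5 FPKM in Ebi3-Treg and at 41.8, 33.5, 47.0 and 44.7 FPKM in Blimp1-Treg. Only Blimp1-Treg 2 reached down to the Ebi3-Treg values. The difference was -0.46 (SE 0.13), with an adjusted p of 0.0824 in the main fit, 0.00703 with the block, 0.0248 after quantile normalization and 0.0390 after median centring (limma). Sla2 was not called on leaving out any 1 of the 8 libraries (adjusted p from 0.0689 to 0.242, limma). It was called in 5 of the 19 other settings. Exons of Rab5if on the opposite strand overlap 23.6% of its exonic bases, and it is not known whether reads were counted by strand.
Grap2, encoding GADS, which bridges LAT and SLP-76, was at 12.5, 9.20, 7.53 and 8.51 FPKM in Ebi3-Treg and at 8.38, 5.67, 5.75 and 4.59 FPKM in Blimp1-Treg. Only Blimp1-Treg 1 lay inside the Ebi3-Treg range. The difference was 0.56, with an adjusted p of 0.138, and 0.0181 with the block (limma).
The remaining 4 adaptors were called neither in the main fit nor with the block. Lcp2, encoding SLP-76, varied little, at 425 to 503 FPKM against 416 to 466 FPKM, with a difference of 0.06 (95% interval -0.20 to 0.31). Grb2, the Ras-pathway adaptor, was at 132 to 156 FPKM against 114 to 163 FPKM (difference 0.06). Nck1, which links the receptor to the cytoskeleton, was at 28.3 to 38.6 FPKM against 31.0 to 49.6 FPKM (difference -0.20). Lat was at 287, 703, 334 and 332 FPKM in Ebi3-Treg and at 549, 701, 292 and 329 FPKM in Blimp1-Treg. The libraries numbered 2 were highest in both populations and about equal to each other, while those numbered 1 were not.

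None of the 4 genes for the lipase and the exchange factors passed the main threshold or had an unadjusted p under 0.05 (limma). Vav1, the exchange factor for Rac, was at 176, 117, 190 and 198 FPKM in Ebi3-Treg and at 135, 86.2, 163 and 151 FPKM in Blimp1-Treg. Within each number the Ebi3-Treg library was the higher, by a log2 difference of 0.36 on average (adjusted p = 0.378 in the main fit and 0.0153 with the block, limma). Plcg1, encoding the phospholipase that makes diacylglycerol and inositol trisphosphate, was at 150, 47.3, 167 and 150 FPKM against 109, 33.1, 154 and 147 FPKM. The spread between libraries 2 and the rest exceeded that between the populations, and the 95% interval of the difference ran from -0.74 to 1.29. Rasgrp1, the diacylglycerol-dependent Ras activator, had a difference of -0.02, with both libraries numbered 2 at the bottom (71.3 and 72.1 FPKM, against 145 to 179 FPKM in the other 6). Sos1, another Ras activator, was the least abundant of the 38 genes (3.32 to 7.0 FPKM) and had a difference of 0.04.

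Malt1 was the gene with the largest difference of the 38. MALT1 is a scaffold and protease that joins BCL10 in the complex through which protein kinase C-theta activates NF-kB. Its transcript was at 27.1, 17.1, 29.6 and 25.6 FPKM in Ebi3-Treg 1 to 4 and at 89.5, 54.1, 110 and 103 FPKM in Blimp1-Treg 1 to 4. The lowest Blimp1-Treg library, number 2, was well above the highest Ebi3-Treg library, number 3. The means were 24.9 ± 5.43 and 89.2 ± 24.9 FPKM (SD, n = 4 each), so the level in Blimp1-Treg was 3.58 times that in Ebi3-Treg. The log2 difference was -1.78 (SE 0.21, 95% interval -2.27 to -1.29, adjusted p = 0.00332 by limma). It was -1.65 within replicates 1 and 2 and -1.91 within replicates 3 and 4. The adjusted p was 0.502 within replicates 1 and 2 alone and 0.00375 within replicates 3 and 4 alone (limma). Malt1 was called in all 19 other settings, with a largest adjusted p of 0.0202 (limma). No exon of another gene overlaps its exons in the reference annotation (GENCODE vM21).
Bcl10, the partner of MALT1, did not follow. It was at 102, 185, 105 and 103 FPKM in Ebi3-Treg and at 91.2, 166, 83.8 and 84.5 FPKM in Blimp1-Treg. Within each number the Ebi3-Treg library was the higher, and both libraries numbered 2 stood above the rest of their population. The difference was 0.23 (95% interval -0.33 to 0.79), with an adjusted p of 0.740 and, with the block, 0.0632 (limma).

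**Figure D3:**
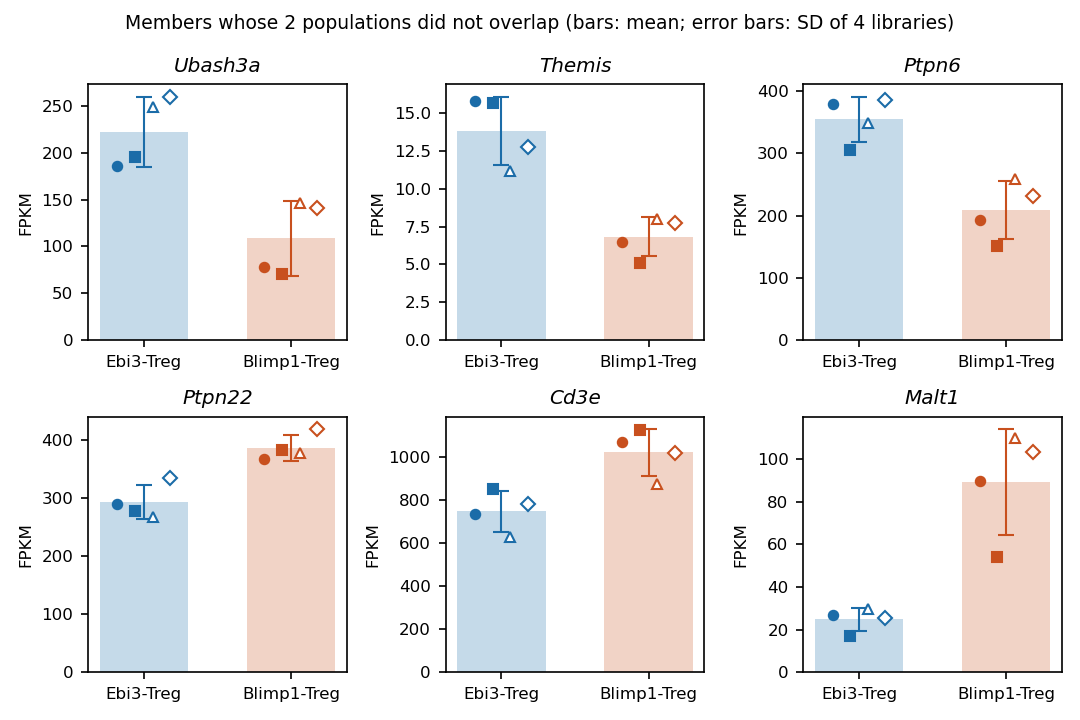
FPKM of the 6 genes whose 4 Ebi3-Treg libraries all lay above or all lay below the 4 Blimp1-Treg libraries. Bars are means from 0, error bars are the SD of 4 libraries, and points are libraries (circle 1, square 2, triangle 3, diamond 4). Ubash3a, Themis and Ptpn6 are higher in Ebi3-Treg, and Ptpn22, Cd3e and Malt1 are lower, Malt1 with the widest gap.

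The phosphatases held 2 of the 3 genes that were higher in Ebi3-Treg. Ubash3a encodes STS-2, a phosphatase-related protein that dampens receptor signalling in T cells. It was at 186, 195, 249 and 260 FPKM in Ebi3-Treg and at 78.4, 70.4, 146 and 141 FPKM in Blimp1-Treg. All 4 Ebi3-Treg libraries lay above all 4 Blimp1-Treg libraries, and in both populations numbers 3 and 4 were higher than numbers 1 and 2. The means were 222 ± 37.5 and 109 ± 40.1 FPKM (SD, n = 4 each), a ratio of 2.04. The log2 difference was 1.08 (SE 0.14, 95% interval 0.75 to 1.41, adjusted p = 0.00497 by limma), or 1.34 within replicates 1 and 2 and 0.82 within replicates 3 and 4. Within replicates 3 and 4 alone the adjusted p was 0.00670, and within replicates 1 and 2 alone it was 0.406 (limma). The call was kept on leaving out each library in turn (adjusted p up to 0.0247) and lost without the table term (0.0801, limma).
Ptpn6 encodes SHP-1, which removes phosphate from proximal kinases. It was at 379, 305, 348 and 385 FPKM in Ebi3-Treg and at 193, 151, 258 and 231 FPKM in Blimp1-Treg. The groups did not overlap, with 305 FPKM in Ebi3-Treg 2 as the value nearest to Blimp1-Treg 3, at 258 FPKM. The means were 354 ± 36.6 and 208 ± 46.7 FPKM (SD, n = 4 each), a ratio of 1.70. The log2 difference was 0.79 (SE 0.16, adjusted p = 0.0249 by limma), or 0.99 within replicates 1 and 2 and 0.58 within replicates 3 and 4. The call was lost on leaving out Ebi3-Treg 2, 3 or 4 or Blimp1-Treg 1, 3 or 4, with adjusted p up to 0.0973 (limma). B cells also express Ptpn6. The summed B cell markers were higher in the Ebi3-Treg library of each of the numbers 1, 3 and 4 (321 against 242, 81.4 against 43.9 and 84.5 against 56.7 FPKM) and not of number 2 (57.0 against 60.1 FPKM). Within replicates 3 and 4 the log2 differences were 1.80 for Bank1, 1.36 for Cd22, 0.49 for Cd79b, 0.13 for Cd79a and 0.03 for Ms4a1. Blk (-0.73) and Fcmr (-0.16) lay in the other direction. The summed myeloid and dendritic markers were higher in the Ebi3-Treg library of every number. These sums were 109 against 34.5, 93.5 against 10.7, 12.1 against 4.77 and 22.9 against 11.9 FPKM. The part of such cells in the difference of Ptpn6 was not tested.
Ptpn22 encodes a phosphatase that acts on LCK and ZAP-70. It was at 290, 277, 268 and 334 FPKM in Ebi3-Treg and at 367, 383, 377 and 419 FPKM in Blimp1-Treg. The groups did not overlap, in the opposite direction to Ubash3a and Ptpn6. The difference was -0.40 (SE 0.12), -0.40 within replicates 1 and 2 and -0.41 within replicates 3 and 4. Its adjusted p was 0.107 and, with the block, 0.0103 (limma).
Ptprc, encoding CD45, which keeps Src-family kinases active, was at 688 to 1095 FPKM against 822 to 976 FPKM, with a difference of 0.02 (95% interval -0.28 to 0.33). Ptpn2, a phosphatase of Src-family and JAK kinases, had a difference of -0.04. Its values ranked by number, with 141 and 166 FPKM in the libraries numbered 2 and 63.1 to 78.3 FPKM in the other 6.

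In all, 6 of the 38 genes had populations that did not overlap, 3 higher in Ebi3-Treg (Ubash3a, Themis and Ptpn6) and 3 lower (Malt1, Cd3e and Ptpn22). Over all genes tested this held for 6.63% in the higher and 4.5% in the lower direction, 11.1% in all. Without both libraries numbered 2 it held for 16 of the 38 genes and for 28.7% of all genes tested, where 3 libraries stand against 3 and non-overlap is easier to reach.

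The ubiquitin ligases and the diacylglycerol kinases gave no call in the main fit (limma), and 1 of the 4 genes, Dgka, had an unadjusted p under 0.05. Dgka encodes diacylglycerol kinase alpha, which removes the diacylglycerol made by PLC-gamma-1. It was at 294, 196, 317 and 344 FPKM in Ebi3-Treg and at 198, 109, 212 and 205 FPKM in Blimp1-Treg. Ebi3-Treg 2 alone fell within the Blimp1-Treg range. The difference was 0.68 (SE 0.21), 0.70 within replicates 1 and 2 and 0.66 within replicates 3 and 4. Its adjusted p was 0.118 in the main fit, 0.00202 with the block and 0.0116 within replicates 3 and 4 alone (limma).
Dgkz, encoding the zeta isoform, was at 389, 145, 340 and 371 FPKM in Ebi3-Treg and at 260, 72.9, 272 and 309 FPKM in Blimp1-Treg. The Ebi3-Treg library was the higher within each number, and both libraries numbered 2 were far below the rest. The difference was 0.54 (SE 0.43), with an adjusted p of 0.629 and, with the block, 0.0253 (limma).
Cbl and Cblb encode ligases that tag receptor and signalling proteins for removal. Cbl was at 16.5 to 53.8 FPKM in Ebi3-Treg against 21.3 to 55.6 FPKM in Blimp1-Treg, with a difference of -0.18 (95% interval -1.08 to 0.71). Cblb was at 14.0 to 23.5 FPKM against 13.9 to 29.8 FPKM, with a difference of -0.24 (95% interval -0.79 to 0.31). The differences of Cblb in the 2 tables were -0.04 and -0.44.

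In the calcium and NFAT branch, 4 of the 5 genes had a fold change below 0 and none passed the main threshold (limma). At an unadjusted p under 0.05 there was 1, Nfatc1. Nfatc1 encodes the NFAT factor whose own transcript is induced on activation. It was at 133, 80.6, 144 and 163 FPKM in Ebi3-Treg and at 205, 112, 256 and 321 FPKM in Blimp1-Treg. Blimp1-Treg 2 was the only library of its population inside the Ebi3-Treg range. The difference was -0.72 (SE 0.24), or -0.54 within replicates 1 and 2 and -0.90 within replicates 3 and 4. Its adjusted p was 0.149 in the main fit, 0.00361 with the block, 0.0210 within replicates 3 and 4 alone, 0.0417 without Blimp1-Treg 2 and 0.0447 after median centring (limma). Nfatc1 was called in 1 of the 8 fits that left out 1 library, with adjusted p up to 0.396 (limma). It was called in 5 of the 19 other settings.
Nfatc2 was at 51.9, 13.8, 48.7 and 47.8 FPKM in Ebi3-Treg and at 42.7, 12.9, 70.8 and 65.2 FPKM in Blimp1-Treg. Its direction differed between the tables, 0.18 within replicates 1 and 2 and -0.48 within replicates 3 and 4, where the adjusted p was 0.0308 (limma). The difference between the tables was not called. Nfatc3 had a difference of -0.06 (95% interval -0.84 to 0.72), with both libraries numbered 2 the lowest, at 17.4 and 19.0 FPKM.
Stim1, the calcium sensor of the endoplasmic reticulum, was at 12 to 34.2 FPKM against 10.6 to 35.3 FPKM (difference -0.05). Orai1, the channel that STIM1 opens, was at 115, 219, 90.0 and 99.2 FPKM in Ebi3-Treg and at 90.0, 136, 91.5 and 90.3 FPKM in Blimp1-Treg. Its difference was 0.28 (95% interval -0.26 to 0.83), and Ebi3-Treg 3 was level with the lowest Blimp1-Treg library.

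Within replicates 3 and 4 alone 8 of the 38 genes were called, 4 higher (Ubash3a, Dgka, Ptpn6 and Prkcq) and 4 lower (Malt1, Nfatc1, Sla2 and Nfatc2), beside 11% of all genes tested. Fewer of the 38 genes were called when 1 of these libraries was left out, which leaves a lone library in a population. Whether those calls were among the 8 was not traced, and the share of all genes was not counted there. Within replicates 1 and 2 alone no gene of the 12273 was called by limma (0%), although 4 of the 38 genes and 707 of all genes had an unadjusted p under 0.05. With the replicate block inside that table, 15 of the 38 genes were called, beside 23.3% of all genes tested. The difference between the tables was called for no gene (0%). There, 1 of the 38 genes and 203 of all genes had an unadjusted p under 0.05, and the block fit called none of the 38. The direction was the same in both tables for 30 of the 38 genes and for 8551 of the 12273.

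In both populations 21 of the 38 genes were at their lowest in the library numbered 2 and 9 were at their highest there (Cd3d, Cd3e, Cd3g, Cd247, Lat, Nck1, Bcl10, Ptpn2 and Orai1). The order of libraries 1 and 2 was the same in both populations for 34 genes. These counts were not made over all genes tested. The median log2 change from number 1 to number 2, averaged over the populations, was -0.35 for the 38 genes and -0.22 for 12232 tested genes. The median length of the longest annotated transcript was 2539 bases for the 9 genes and 4362 bases for the 21. At the short end, Cd3d (1617 bases) was 1.01 higher in number 2 than in number 1 on the log2 scale, averaged over the populations, and Cd3g (2539 bases) 1.27 higher. At the long end, Nfatc2 (6828 bases) differed by -1.74 and Cbl (11372 bases) by -1.46. Other genes departed from this order, among them Zap70 (2245 bases, -0.84), Csk (2749 bases, -0.82), Dgka (2834 bases, -0.72), Vav1 (2963 bases, -0.61), Ptpn6 (2308 bases, -0.34), Nck1 (4476 bases, 0.34) and Ubash3a (7635 bases, -0.04). Across the 38 genes, the change from number 1 to number 2 and transcript length had a Spearman rho of -0.58 and a Pearson r of -0.55, and across 12232 tested genes -0.39 and -0.29. With the GC content of the transcript Spearman's rho was -0.36 across the 38 genes and -0.30 across all. Genes share these libraries and are not independent, so the values describe these 4 libraries. Why the libraries numbered 2 diverged was not tested.

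**Figure D4:**
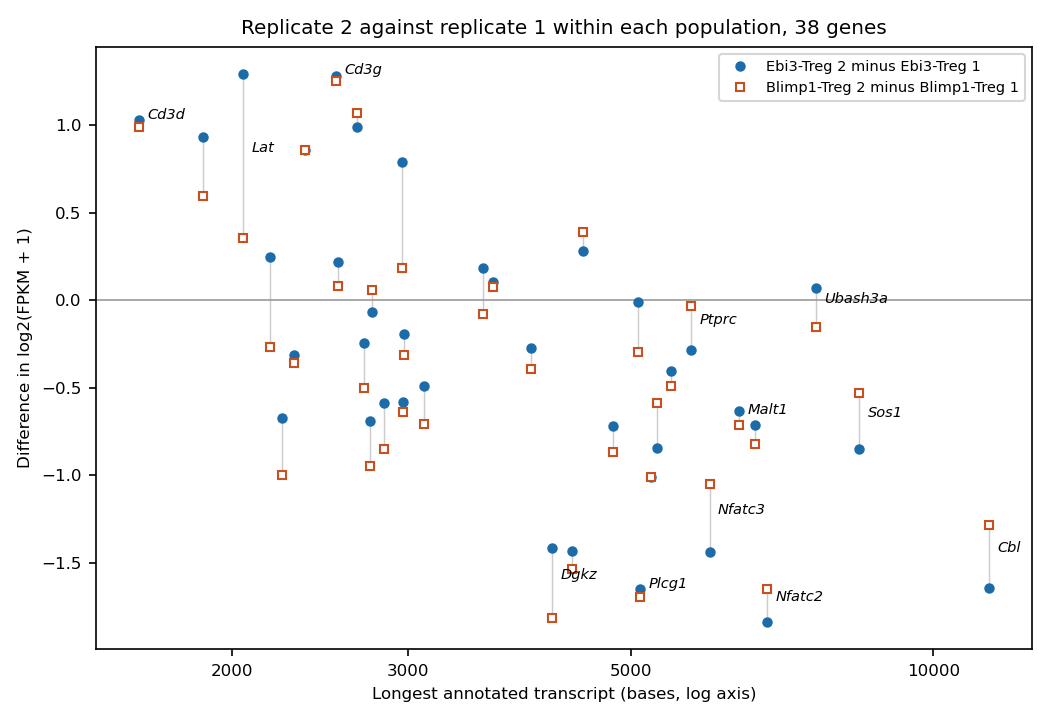
Difference between replicate 2 and replicate 1 in log2(FPKM + 1) for each of the 38 genes (vertical axis) against the length of its longest annotated transcript in bases (log axis). Filled circles are Ebi3-Treg and open squares Blimp1-Treg, joined for each gene. The symbols of a gene mostly lie close together, and short transcripts such as Cd3d and Cd3g lie above 0 while long ones such as Nfatc2 and Cbl lie below.

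Other genes of the pathway were read from a list of 125, of which 119 passed the filter on low values. Of these, 4 were higher in Ebi3-Treg, 2 were lower and 113 were not called, with a median log2 fold change of 0.09. These are the calls of the main fit, which called 6.29% of all genes tested. With the block 19 were higher and 18 lower, beside 13.5% and 8.94% of all genes. Trat1, encoding TRIM, an adaptor bound to the receptor complex, averaged 128 ± 23.9 FPKM in the Ebi3-Treg libraries against 41.0 ± 9.61 FPKM in those of Blimp1-Treg (SD, n = 4 each; log2 difference 1.63, adjusted p = 0.00442 by limma). Tespa1, known from thymocyte selection as Themis is, was at 47.0 ± 5.52 and 20.1 ± 3.34 FPKM (1.19, adjusted p = 0.00613 by limma, n = 4 each). Fyb, encoding ADAP, a partner of SLP-76, was at 496 ± 56.5 and 294 ± 36.0 FPKM (0.75, adjusted p = 0.0148), and Vav3, a relative of Vav1, at 34.4 ± 3.8 and 22.2 ± 4.40 FPKM (0.63, adjusted p = 0.0404, limma).
The genes lower in Ebi3-Treg were Tec, a relative of Txk, and Sla, encoding SLAP, the relative of SLAP-2. Tec averaged 6.19 ± 2.83 FPKM in the Ebi3-Treg libraries against 20.7 ± 5.90 FPKM in those of Blimp1-Treg (log2 difference -1.62, adjusted p = 0.00782 by limma, n = 4 each). Sla was at 220 ± 21.5 and 329 ± 29.6 FPKM (-0.58, adjusted p = 0.0377 by limma, n = 4 each).

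Among 16 genes that antigen receptor signals are known to induce quickly, the median log2 fold change was 0.67. This list, like the others here, was chosen with earlier results of these data known. Its counts describe the list and are no independent test. At an unadjusted p under 0.05, 8 were higher and 1 lower (limma), beside 11% and 7.57% of all genes tested. By adjusted p, 5 were higher in Ebi3-Treg and none was lower, beside 3.37% and 2.93% of all genes tested. They were Myc (148 ± 29.4 against 50.6 ± 10.9 FPKM, log2 difference 1.54, adjusted p = 0.00600), Nr4a1, which encodes NUR77 (393 ± 86.7 against 217 ± 43.4 FPKM, 0.85, adjusted p = 0.0210), Junb (0.73, adjusted p = 0.0249), Fos (0.61, adjusted p = 0.0360) and Dusp2 (0.88, adjusted p = 0.0499, all by limma, SD with n = 4 each). Dusp2 is outside the rule for named genes and is given because it completes the count. With the block 8 of the 16 were higher and 2 lower, beside 13.5% and 8.94% of all genes. Summed over the 16 genes, Ebi3-Treg libraries held 8218 to 9759 FPKM and Blimp1-Treg libraries 5709 to 6558 FPKM. Junb (4375 against 2635 FPKM) and Fos (1814 against 1179 FPKM) were the largest parts of these sums. The log2 difference was negative for 2 of the 16 genes, Tnfrsf9 (-0.79) and Irf4 (-0.45), which are outside the rule for named genes. Their adjusted p was 0.107 and 0.630 in the main fit, and 0.00354 and 0.0218 with the block (limma). In the main fit 11 of the 16 genes were not called.
Of 16 genes that serve the antigen receptor of B cells, 9 passed the filter and none was called by limma. At an unadjusted p under 0.05 there were 1 in each direction, the block fit called 4 higher and 1 lower (13.5% and 8.94% of all genes), and none of the 9 had populations that did not overlap. Prkcb, Lyn, Dapp1 and Cd22 had the smallest adjusted p (0.245, 0.260, 0.273 and 0.290, limma). The 38 genes are read from whole sorted populations, where fewer cells of a type and less RNA per cell cannot be told apart. The sum of the conventional CD4 T cell markers, given above, moved with the populations in the direction of Ubash3a, Themis and Ptpn6. Of its 6 genes, 3 (Cd40lg, Tcf7 and Lef1) were called higher in Ebi3-Treg, beside 3.37% of all genes tested. Tcf7 made up most of the sum in Ebi3-Treg (583 FPKM, against 96.3 FPKM in Blimp1-Treg), and Il7r lay in the other direction (61.9 against 81.1 FPKM, log2 difference -0.37, not called). Their part in the differences of the 38 genes was not tested.

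**Figure D5:**
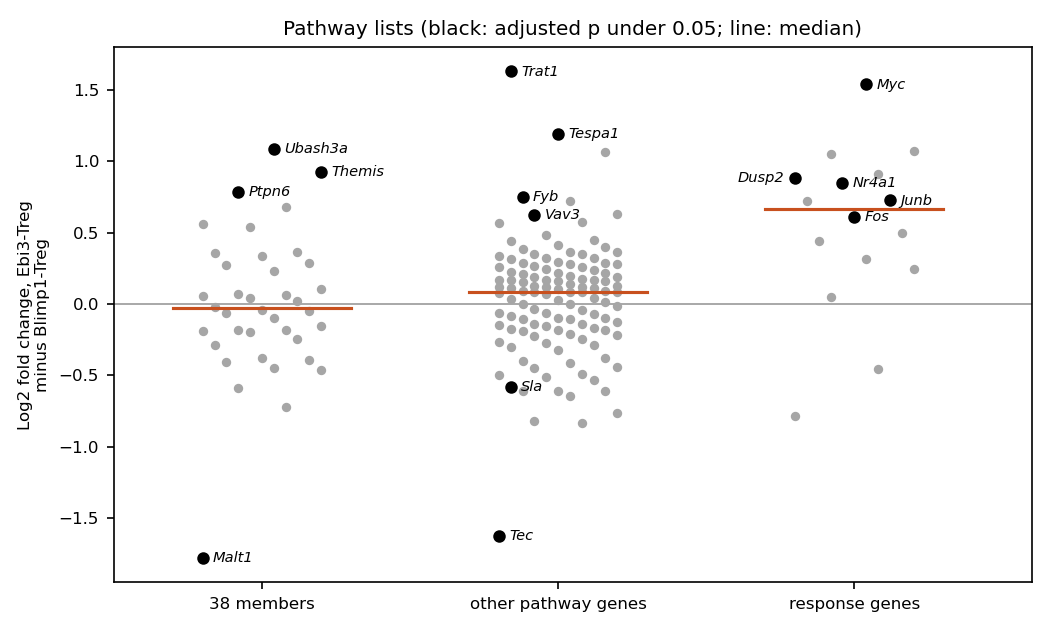
Log2 fold change of FPKM + 1, Ebi3-Treg minus Blimp1-Treg, for the 38 genes, the 119 tested genes of the rest of the pathway and the 16 response genes. Each point is a gene, black where the adjusted p was under 0.05. The orange line is the median of the list, which lies at -0.03, 0.09 and 0.67. The lists were chosen with earlier results of these data known.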

How the data were processed

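Per the labels' protocols, magnetic beads enriched CD4+ cells ahead of the sort. The submitters' processing notes name the build mm9 and the tools TopHat2 2.0.12, Bowtie2 2.2.3 and HTSeq 0.6.1. The role of each tool, the gene annotation and the mode of counting are each not given in the sources used here. FPKM values for each gene were deposited by the authors, with 47709 and 47681 features in the tables. Rows lacking an Ensembl identifier (640 and 612) were dropped, and 46488 of 47069 genes received a symbol from GENCODE vM21 (GRCm38), which also gave exon lengths and overlaps.

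Genes reaching 1 FPKM in 4 or more of 8 libraries were fitted as log2(FPKM + 1) in R 4.3.3 with limma 3.58.1, using terms for population and table, a variance trend and two-sided Benjamini-Hochberg adjusted p under 0.05. All adjusted p come from limma. Fold changes are on this log2 scale, which understates low genes, and levels set across tables carry the limit that the authors scaled each library separately. The script was tested on simulated data. Depth was inferred by taking the commonest value of FPKM times reference exon length as 1 read, which is 0.0320 to 0.0750 FPKM in a gene of 1 kb. With it 34.7% to 45.1% of the genes above 0 in a library came out as whole reads. Reads of the 38 genes did not come out whole with reference lengths, so no count test was run. No molecular identifiers are named, so reads need not be independent molecules, and the counting error given covers counting only.

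Same-numbered libraries correlated across genes in their deviation from the population means (r = 0.62, 0.89, 0.53 and 0.54 for numbers 1 to 4), which is taken from the data and not from the labels. Relative to population means within a table, numbers 1 and 2 gave r = 0.85 but 3 and 4 gave -0.08, meaning that in the second table the numbers did not pair. Other settings tried were pseudocounts of 0.1 and 0.01, no filter or 5 FPKM, no table term, the replicate block, no variance trend, quantile normalization, median centring, and leaving out libraries. The rule for named genes took all 38 members, up to 6 called genes in each direction of the wider pathway list, and the 4 smallest adjusted p of the response and B cell lists. The members, lists and tests were chosen with earlier results of these data known. Promoters came from a RefSeq table (34 of 38 members matched).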

Additional observations from a re-analysis of the deposited data

Results flagged for a closer look

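A library was set apart where its gap to the nearest of the 4 libraries of its population exceeded, as a share of their whole range, Dixon's 95% limit for 4 values, which chance passes in about 1 of 20 groups (5%). Of 76 groups (38 genes in 2 populations), 14 had such a library, and in 13 of them it was replicate 2. Such libraries were not counted over all genes tested. In Ebi3-Treg 2 the high values were Cd3d at 449 FPKM, Cd3g at 2249 FPKM, Lat at 703 FPKM, Bcl10 at 185 FPKM and Ptpn2 at 141 FPKM, and the low values were Plcg1 at 47.3 FPKM and Nfatc2 at 13.8 FPKM. In Blimp1-Treg 2 the high values were Bcl10 at 166 FPKM, Ptpn2 at 166 FPKM and Orai1 at 136 FPKM, and the low values were Cbl at 21.3 FPKM, Dgka at 109 FPKM and Stim1 at 10.6 FPKM. The remaining one was Txk in Ebi3-Treg 1, at 17.4 FPKM against 7.68 to 9.22 FPKM in the other 3 libraries. Of the 4 genes called between the populations, none was among them.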

How the results depend on the processing

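The count of called members (4, of which 3 higher and 1 lower) was the same with pseudocounts of 0.1 and 0.01, a filter of 5 FPKM and no variance trend. These settings called 5.96% to 6.66% of all genes. The count was 2 without a filter and 2 without the table term (1 higher each), beside 1.04% and 3.59% of all genes. Ptpn6 was lost in both, Themis in the first and Ubash3a in the second. With the replicate block the count was 15 (9 higher, 6 lower), beside 22.4% of all genes. Without both libraries numbered 1 it was 12 (8 higher, 4 lower), and without both numbered 2 it was 14 (8 higher, 6 lower), beside 16.1% and 16.0% of all genes. Quantile normalization gave 2 lower and median centring 3 lower, beside 8.12% and 7.06% of all genes called in either direction. Leaving out 1 library gave 2 to 4 called, 1 to 2 higher and 1 to 2 lower, beside 2.78% to 6.28% of all genes. It was 2 on dropping any of Ebi3-Treg 2 to 4, Blimp1-Treg 1, Blimp1-Treg 3 and Blimp1-Treg 4. Of the wider pathway 6 were called (6.29% of all genes), and 37 with the block (22.4%). Without numbers 1 and 2 it was 31 and 34 (16.1% and 16.0%). Without 1 library it was 3 to 5 (2.78% to 6.28%), with 3 on leaving out any 1 numbered 3 or 4. Within replicates 1 and 2 the count went from 0 to 15 with the block inside the table (23.3% of all genes). Within replicates 3 and 4 the count of 8 (11% of all genes) fell without 1 library. There the lone library is assumed to vary like the others, and the share of all genes was not counted. The genes without overlap went from 6 to 16 without both libraries numbered 2, and the share of all genes tested from 11.1% to 28.7%. The causes were not tested. No called difference changed sign under these settings.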
